A study of Homo sapiens with 11 samples.

Results

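Expression of 10 genes of the alveolar and lung lineage (HOPX, NKX2-1, FOXA1, FOXA2, SFTPB, SFTPD, NAPSA, ABCA3, LAMP3 and GATA6) was examined on 11 Agilent human expression arrays. They are 10 of the 20249 genes that could be named on the array, and 13 of its 42405 probes measure them. The genes were chosen by name with their levels and changes on these same arrays already known, so all their values are given as a description, with no p-value.

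The arrays measured RNA of stable transfectants of A549 and HCC827, established cell lines of human lung adenocarcinoma. Cells had been infected with a retrovirus made from either the empty pMXs-Neo vector (mock) or the same vector carrying the coding sequence of wild-type TRIM58 (TRIM58-WT), selected with G418 and, per the methods, isolated as clones, so that differences between clones and effects of TRIM58 cannot be told apart. The study names clones for A549 and crude transfectants for HCC827, and which clone an array holds is not given. A549 had 3 mock replicates, on 4 arrays, and 3 TRIM58-WT replicates. HCC827 had 2 replicates of either kind, each hybridised once. Nothing in the labels says that replicates were separate cultures, so p-values measure the spread between these samples, which may be technical. A549 mock arrays 1-1 and 1-2 carry the label of the same control cell and were averaged to 1 replicate for means, SDs and tests.

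The alveolus is lined by flat type 1 cells, through which gas is exchanged, and by cuboidal type 2 cells, which make surfactant, store it in lamellar bodies and secrete it. The homeodomain factor NKX2-1 (TTF-1), together with the forkhead factors FOXA1 and FOXA2 and the zinc finger factor GATA6, drives the surfactant genes in type 2 cells, while HOPX, a homeodomain protein that lacks DNA binding, is best known as a marker of type 1 cells. NKX2-1 and napsin A (NAPSA) are also the stains by which pathologists recognise a lung adenocarcinoma.

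Promoters are shown for the genes on which the results turn, namely HOPX and ABCA3, called in a TRIM58-WT comparison, and NKX2-1, with the largest lower bound on the gap between the lines. The RefSeq table (GRCh38.p14) held 12 promoters of 8 of the 10 genes, each 300 bases long, from 250 before to 50 after a gene's start. Capitals mark matches on either strand to 1 of 4 motifs. The forkhead motif was searched as TNTTTAC, where N is any base. As the GATA motif, the letters searched were AGATAA. For the NKX2 motif they were TNAAGTG. The TATA box was written TATAAA. No match overlapped another. The promoters are written 5′ to 3′ on the strand of the gene, which is the minus strand for all 5.
HOPX, chr4:56681247-56681546: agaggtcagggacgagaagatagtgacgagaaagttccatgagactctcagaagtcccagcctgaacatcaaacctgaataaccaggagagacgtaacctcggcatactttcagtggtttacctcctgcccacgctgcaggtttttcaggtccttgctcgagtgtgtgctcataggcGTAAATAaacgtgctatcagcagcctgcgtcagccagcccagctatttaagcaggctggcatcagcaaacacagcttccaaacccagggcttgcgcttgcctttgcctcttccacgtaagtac
HOPX, chr4:56656468-56656767: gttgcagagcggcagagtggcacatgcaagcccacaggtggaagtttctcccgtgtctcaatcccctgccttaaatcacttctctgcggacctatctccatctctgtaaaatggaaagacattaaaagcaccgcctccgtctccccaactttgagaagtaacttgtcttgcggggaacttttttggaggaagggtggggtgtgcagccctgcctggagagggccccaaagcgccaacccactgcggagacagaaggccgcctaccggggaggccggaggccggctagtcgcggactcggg
NKX2-1, chr14:36520183-36520482: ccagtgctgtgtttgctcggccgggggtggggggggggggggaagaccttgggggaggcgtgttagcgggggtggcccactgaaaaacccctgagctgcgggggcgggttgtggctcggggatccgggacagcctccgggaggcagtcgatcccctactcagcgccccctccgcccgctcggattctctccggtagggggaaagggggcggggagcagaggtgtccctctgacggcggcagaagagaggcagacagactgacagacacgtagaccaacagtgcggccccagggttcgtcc
NKX2-1, chr14:36519507-36519806: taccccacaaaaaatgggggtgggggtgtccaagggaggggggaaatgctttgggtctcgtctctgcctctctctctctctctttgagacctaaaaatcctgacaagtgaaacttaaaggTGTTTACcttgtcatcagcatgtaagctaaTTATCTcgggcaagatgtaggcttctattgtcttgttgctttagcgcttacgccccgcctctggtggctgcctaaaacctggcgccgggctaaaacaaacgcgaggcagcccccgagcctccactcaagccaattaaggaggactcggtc
ABCA3, chr16:2340679-2340978: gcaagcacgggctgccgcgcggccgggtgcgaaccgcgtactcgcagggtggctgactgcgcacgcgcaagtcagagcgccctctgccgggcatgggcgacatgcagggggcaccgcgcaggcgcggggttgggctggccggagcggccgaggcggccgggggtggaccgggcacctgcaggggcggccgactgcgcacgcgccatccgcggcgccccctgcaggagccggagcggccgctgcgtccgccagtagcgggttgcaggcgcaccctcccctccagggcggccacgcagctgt
The forkhead motif matched in 2 of the 12 promoters, the first of HOPX (bases 178 to 184 of the window) and the second of NKX2-1 (bases 121 to 127), and it is found in 10.8% of the 35116 promoters of the table. The GATA motif matched in 1, the second promoter of NKX2-1 (bases 151 to 156), against 10.3% of all promoters. No match to the NKX2 motif or the TATA box was present in the 12 windows, and these are found in 10.2% and 11.53% of all promoters. The number of CpG dinucleotides, the sites of DNA methylation, was 42 in the ABCA3 promoter, 34 in that of FOXA1, 21 and 11 in those of NKX2-1, 11 and 15 in those of HOPX and 1 in that of SFTPD, against a median of 14 over all promoters. Methylation was not measured on these arrays.

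The signal at the 75th percentile ranged from 56.6 to 125 over the 11 arrays, and 40.1% to 49.99% of the probes were well above background, which limits what can be read from dim genes. The level of a probe is given as the log2 of its signal minus the 75th percentile of its array, so 0 is a signal at that percentile. Levels of different probes were not compared, since probes differ in brightness. A probe passed the filter and was tested if all arrays of either group compared had it well above background, and it was called if limma's moderated test gave an adjusted p under 0.05 with a change of at least 2-fold. TRIM58 itself has 1 probe, which was well above background only on the array labelled A549 mock 3 (level -0.71) and on no TRIM58-WT array (-5.64 to -4.63). Where that probe lies relative to the coding sequence in the vector was not analysed here, so it checks no label.

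Arrays of A549 did not fall apart by group alone. Over 20617 probes, the array labelled mock 3 differed from TRIM58-WT 2 and 3 by a root mean square of 0.77 and 0.76 (log2), and from the other mock arrays by 0.80 to 0.91. TRIM58-WT 1 differed by 0.94 and 0.91 from TRIM58-WT 2 and 3, which differed from each other by 0.35. Mock arrays 1-1 and 1-2, hybridised on different slides, differed by 0.35. Slide 1 held mock 1-1, mock 2, TRIM58-WT 1 and all 4 HCC827 arrays, and slide 2 the other 4 A549 arrays. Results of A549 are therefore also given without mock 3 and TRIM58-WT 1.

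Both lines showed markers of simple epithelium, with all 7 genes of that list (EPCAM, KRT7, KRT8, KRT18, KRT19, CDH1 and MUC1) well above background on the mock arrays and the HCC827 TRIM58-WT arrays, and 5, all but EPCAM and KRT19, on the A549 TRIM58-WT arrays. No endothelial marker of 6 (PECAM1, VWF, CDH5, KDR, TEK, CLDN5) was well above background throughout any group. Of 6 leukocyte markers measured, CD14 and CD79A were so in A549 mock, and these with CSF1R and PTPRC in HCC827 mock. Of 7 dendritic cell markers, CD83 and CD86 were so in all 4 groups and CCR7 in A549 TRIM58-WT alone.

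With the empty vector, the lines differed widely in lineage genes. HCC827 carried NKX2-1, NAPSA and HOPX at levels at least 18.5 times those of A549, and more FOXA1, whereas A549 carried more FOXA2. Of the 10 genes, 8 passed the filter, 5 were called, 4 higher in HCC827 (HOPX, NKX2-1, FOXA1, NAPSA) and 1 lower (FOXA2). Over all 19500 probes tested, 30.3% were called, 16.2% higher and 14.1% lower. The groups did not overlap for 7 of the 8 genes, GATA6 being the exception, against 69.7% of all probes. These 8 include genes that passed only through the line in which they are high, and SFTPB and SFTPD did not pass.

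In A549, ABCA3 was higher on the arrays labelled TRIM58-WT. It was the only gene called of the 4 that passed the filter (ABCA3, FOXA1, FOXA2, GATA6), against 6.92% of all 16921 probes tested, 3.49% higher and 3.43% lower. The groups did not overlap for ABCA3 and GATA6, against 31% of all probes. Without mock 3 and TRIM58-WT 1, left out after the data were seen, 4 of the 10 genes were called (ABCA3, LAMP3, SFTPD and the second probe of HOPX). FOXA1, FOXA2 and GATA6 were tested and not called, and the other genes were not tested. Of the 18425 probes then tested, 25.5% were called. In HCC827, HOPX fell below the limit of measurement and was the only gene called of the 8 that passed, against 0.885% of 19542 probes, 0.292% higher and 0.594% lower. HOPX passed the filter only through the mock group, in which it is high. NKX2-1, FOXA1 and NAPSA had lower levels and FOXA2, ABCA3 and GATA6 higher levels with TRIM58-WT, none of them called, and with HOPX these made 7 of 8 genes without overlap, against 56.7% of all probes. In a test of the difference between the lines, 3.85% of 20618 probes had an adjusted p under 0.05, among them that of HOPX, which was at background in both A549 groups and in HCC827 TRIM58-WT. Nothing is read from these shares, since the genes were chosen on the same contrasts. A bulk array cannot tell fewer cells carrying a transcript from less of it per cell.

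NKX2-1, the master regulator of lung identity, was not well above background on any of the 7 A549 arrays (-5.27 to -4.52). In HCC827 it stood at 4.85 and 4.59 with the empty vector and at 3.62 and 3.68 with TRIM58-WT. Mock HCC827 was at least 195-fold higher than mock A549, and both HCC827 groups lay above every A549 array. With normexp background correction the log2 difference between the mock groups was 5.42. With TRIM58-WT the level in HCC827 differed by -1.07 (SE 0.15, log2), a fold of 0.476, with no overlap between the groups. It was not called, except when the test was limited to probes well above background on all 4 HCC827 arrays.

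FOXA1, a pioneer factor that opens chromatin for other regulators, was well above background on all 11 arrays, with 10 spots per array. Its levels in A549 were 1.59, 1.57, 1.65 and 0.66 on mock 1-1, 1-2, 2 and 3 and 1.21, 0.82 and 0.85 on TRIM58-WT 1, 2 and 3. The array labelled mock 3 was the lowest of all 7, so the groups overlapped, and the difference was -0.33 (SE 0.30). Without mock 3 and TRIM58-WT 1 it was -0.78 (SE 0.10), short of the 2-fold limit. In HCC827 mock gave 3.07 and 2.96 and TRIM58-WT gave 1.53 and 1.74, without overlap, a difference of -1.38 (SE 0.15) or a fold of 0.385 that was not called. It was called with each array centred on its median, with normexp background correction (-1.22) and among probes well above background on all 4 arrays. Mock HCC827 exceeded mock A549 by 1.72 (SE 0.35), a fold of 3.29, and by 1.39 on slide 1 alone. That call was lost with either HCC827 mock replicate left out (1.66 and 1.77) and with the methods' t-test. The order of its levels was HCC827 mock, HCC827 TRIM58-WT, A549 mock and A549 TRIM58-WT, and the last 3 of these means (1.64, 1.30 and 0.96) lay within 1 SD of A549 mock (0.56) of their neighbour.

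FOXA2, the other forkhead member, which also serves liver and gut, ran the opposite way between the lines. It stood at 2.77, 2.68, 2.99 and 3.13 on the 4 A549 mock arrays and at 2.70, 2.76 and 2.89 on the 3 TRIM58-WT arrays, which overlapped, with a difference of -0.16 (SE 0.17). The HCC827 mock arrays gave -0.91 and -1.02, and those of TRIM58-WT gave -0.06 and -0.08. The HCC827 groups did not overlap, and the difference of 0.90 (SE 0.13), a fold of 1.87, was not called. With normexp background correction it was 0.28. In A549 the difference was -0.53 when arrays were centred on their median. Mock A549 exceeded mock HCC827 15.1-fold, a log2 difference of -3.91 for HCC827 minus A549 that was -2.65 with normexp. Its levels ran in the order A549 mock, A549 TRIM58-WT, HCC827 TRIM58-WT and HCC827 mock, with the A549 groups within their spread.

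GATA6, a regulator of endoderm and of type 2 maturation, was dim but measured on all 11 arrays. It was -0.82, -0.75, -0.83 and -0.40 in A549 mock and -1.05, -1.07 and -1.55 in A549 TRIM58-WT. Each TRIM58-WT array lay below each mock array, by a mean difference of -0.55 (SE 0.22). That difference was -0.23 within slide 1 and -0.74 within slide 2. HCC827 gave -0.49 and -0.87 on the mock arrays against 0.15 and -0.12 on the TRIM58-WT arrays, again without overlap, a difference of 0.70 (SE 0.20). Neither was called, and the signs were opposite in the lines. Normexp background correction brought the differences to -0.13 and 0.43, and centring on the median took that of A549 to -0.92. The mock groups of the lines did not separate, with means of -0.67 (SD 0.23, n = 3) in A549 and -0.68 (SD 0.27, n = 2) in HCC827.

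HOPX had the largest fitted change of the 10 genes in either line. The first of its 2 probes (A_23_P254507) stood at 1.24 and 1.39 on the HCC827 mock arrays and at -3.20 and -3.09 on the HCC827 TRIM58-WT arrays, where it was not well above background. TRIM58-WT was thus at least 22.0-fold lower, and this call was made in the fit over all probes. The call was lost with either mock replicate left out, with no filter on dim probes, with the replicate block and with the methods' t-test, with differences of -4.53 and -4.38 without mock replicate 1 or 2. The probe passed the filter only through the mock arrays, so it was not tested among probes well above background on every array. With normexp background correction it was -2.27. On all 7 A549 arrays the probe was at background (-5.36 to -3.77), which placed HCC827 mock at least 18.5-fold above A549 mock. With normexp that log2 difference was 2.32. A second HOPX probe (A_33_P3350673), made for another transcript and with 1 spot per array, was well above background only on A549 mock 1-1 (-2.70), mock 3 (-1.84), TRIM58-WT 2 (-1.75) and TRIM58-WT 3 (-1.82), and on no HCC827 array. The probes thus did not show the same pattern, and the second was not tested. Without mock 3 and TRIM58-WT 1, left out after the values were seen, the second probe was tested in A549 and called (1.51, SE 0.12). Of the 3 remaining mock arrays, 1 was well above background. Mock 3 lay with TRIM58-WT 2 and 3, and TRIM58-WT 1 (-3.97) lay below every mock array. Leaving these arrays out thus fixed the call in advance, and nothing is read from it. Over all replicates the difference was 0.30, with overlapping groups.

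**Figure D1:**
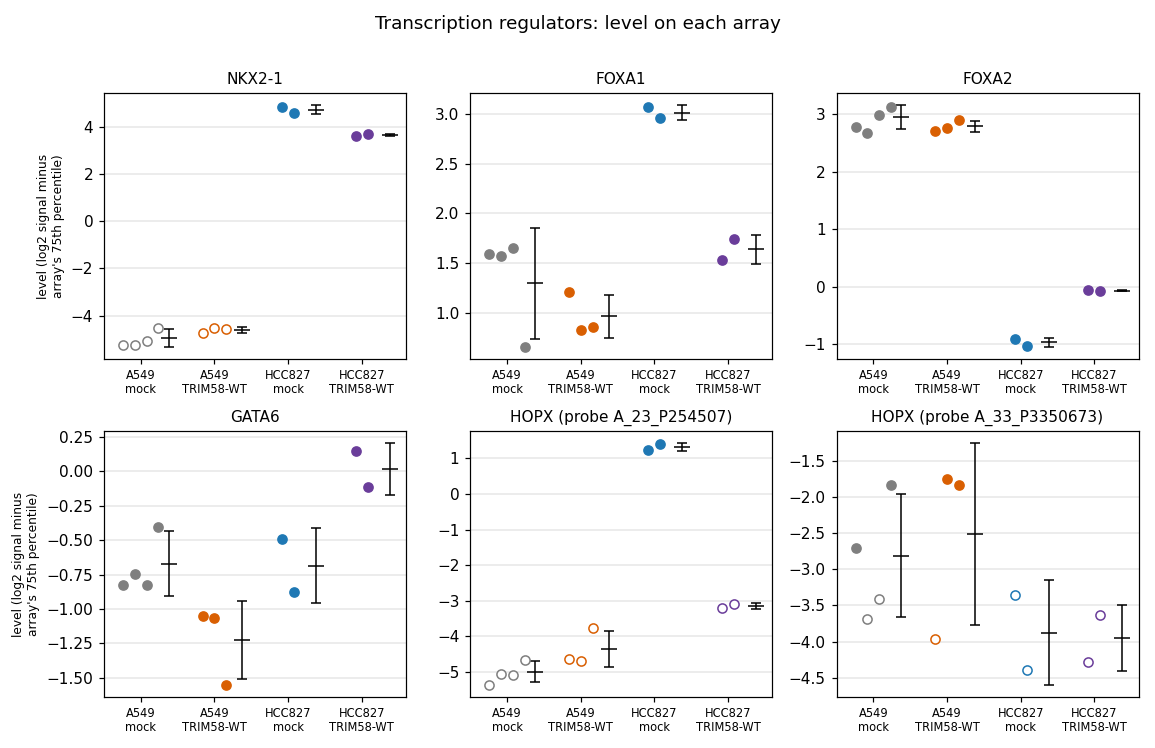
Levels of the 5 transcription regulators on each of the 11 arrays, as log2 signal minus the array's 75th percentile, in the 4 groups, with HOPX drawn for each of its 2 probes and each panel on its own axis. Filled circles were well above background, open circles were not, and bars show the group mean and SD over replicates. NKX2-1 is filled in HCC827 alone, and the first HOPX probe is filled on the 2 HCC827 mock arrays alone.

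Both surfactant protein genes were close to the limit of measurement. SFTPB, a hydrophobic protein that spreads surfactant lipid, has 2 probes. The first was well above background on HCC827 mock 2 (-2.10) and TRIM58-WT 2 (-2.49) alone, with the 11 arrays spanning -3.89 to -2.10, and the second on no array (-5.10 to -2.74). No comparison was made for them.

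SFTPD, a collectin of airspace defence, was well above background on A549 mock 1-1 (-1.50), mock 1-2 (-1.79), mock 2 (-1.64) and TRIM58-WT 1 (-1.41). The array labelled mock 3 (-3.29) and TRIM58-WT 2 and 3 (-3.40 and -3.44) were at background, as were all 4 HCC827 arrays (-5.07 to -3.85). The gene thus did not divide the A549 arrays by their labels, as the array labelled mock 3 lay with TRIM58-WT 2 and 3 and TRIM58-WT 1 with the other mock arrays, and it was not tested. Without mock 3 and TRIM58-WT 1, left out after the values were seen, mock was at least 1.84-fold above TRIM58-WT.

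NAPSA is an aspartic protease that processes surfactant protein B, and 2 probes measured it. Its first probe gave 5.33 and 5.13 in HCC827 mock, against 3.64 and 4.21 with TRIM58-WT. The second gave 3.43 and 3.18 in mock, against 1.73 and 2.33 with TRIM58-WT. The groups did not overlap with either probe, and the differences were -1.30 (SE 0.24) and -1.28 (SE 0.25), neither called. With arrays centred on their median both were called (-1.27 and -1.24). In A549 the second probe was at background on all 7 arrays and the first on all but mock 1-2 (-2.41) and TRIM58-WT 1 (-1.53). By the second probe, mock HCC827 was at least 73.3-fold above mock A549. By the first the difference was 8.02 (SE 0.35), with 1 of 4 A549 mock arrays well above background. With normexp the log2 differences were 3.90 and 5.40.

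ABCA3, the transporter that loads phospholipid into lamellar bodies, was measured on all 11 arrays and was higher with TRIM58-WT in both lines. In A549 it stood at 0.92, 1.07, 1.24 and 1.43 on mock 1-1, 1-2, 2 and 3 and at 2.06, 2.50 and 2.54 on TRIM58-WT 1, 2 and 3. Every TRIM58-WT array lay above every mock array, and the difference was 1.14 (SE 0.21), a fold of 2.21. It was 0.98 within slide 1 and 1.27 within slide 2, and 1.41 (SE 0.13) without mock 3 and TRIM58-WT 1. The call was lost with mock replicate 1 or 2 or TRIM58-WT replicate 2 or 3 left out, with differences of 1.03 to 1.15. It was also lost with arrays centred on the median (0.78), with normexp background correction (0.77), with no filter on dim probes and with the methods' t-test. HCC827 gave 0.24 and 0.31 with the empty vector against 1.11 and 1.00 with TRIM58-WT, which did not overlap. That difference of 0.78 (SE 0.13) was under 2-fold and also missed the adjusted p limit, so it was not called. The difference between the changes of the lines was -0.36 (SE 0.29), and 0.04 when arrays were centred on the median. Mock HCC827 lay below mock A549 by a log2 difference of -0.95 (SE 0.19), under 2-fold, and was called without mock replicate 1 (-1.06). The order of its levels was A549 TRIM58-WT, A549 mock, HCC827 TRIM58-WT and HCC827 mock, and the middle 2 lay within 1 SD of A549 mock (0.22).

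LAMP3, a membrane protein of lamellar bodies that dendritic cells also carry, gave -1.57, -1.42 and -0.79 on A549 mock 1-1, 1-2 and 2. It was at background on the array labelled mock 3 (-4.57) and on all 3 TRIM58-WT arrays (-4.83 to -4.54). With 3 of the 4 mock arrays measured, A549 mock was at least 1.27-fold above TRIM58-WT, a bound that the array labelled mock 3 holds down, and the gene was not tested. Without mock 3 and TRIM58-WT 1, left out after the values were seen, all 3 remaining mock arrays measured it, and mock was at least 2.60-fold above TRIM58-WT. The HCC827 mock arrays gave 1.02 and 0.68 and the TRIM58-WT arrays 0.79 and 1.05, overlapping, with a difference of 0.07 (SE 0.19). Mock HCC827 exceeded mock A549 by 3.14 (SE 1.14), not called, and by 1.99, called, without the array labelled mock 3. Of the 7 dendritic cell markers, CD1C, CLEC9A, CD80 and CCL19 were not well above background throughout any group.

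**Figure D2:**
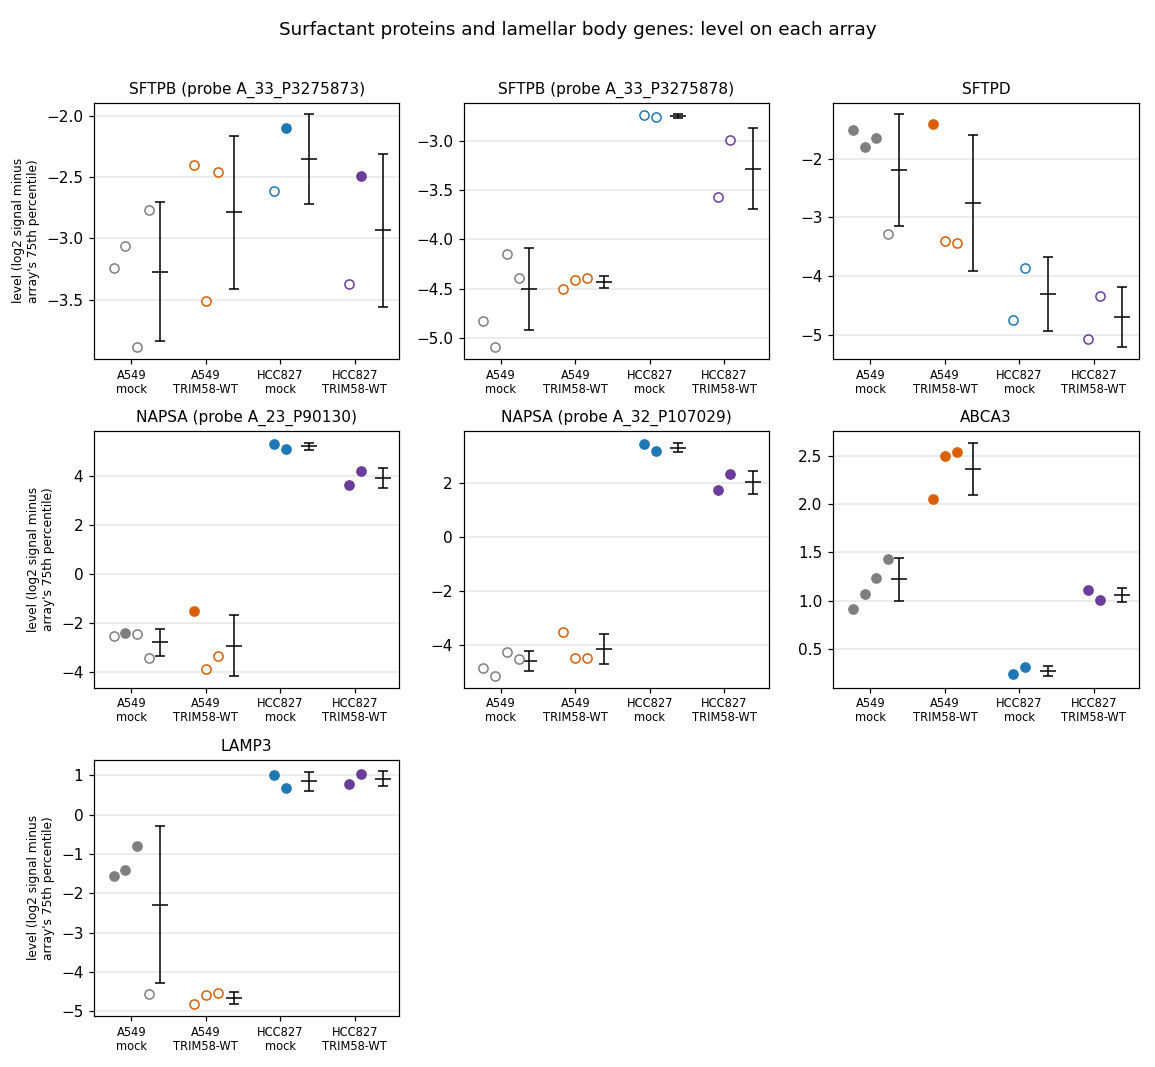
Levels of the surfactant protein and lamellar body genes on each of the 11 arrays, as log2 signal minus the array's 75th percentile, with SFTPB and NAPSA drawn for each of their 2 probes and each panel on its own axis. Filled circles were well above background, open circles were not, and bars show the group mean and SD over replicates. ABCA3 is higher in TRIM58-WT in both lines, and LAMP3 and SFTPD divide the A549 arrays across the labels.

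**Figure D3:**
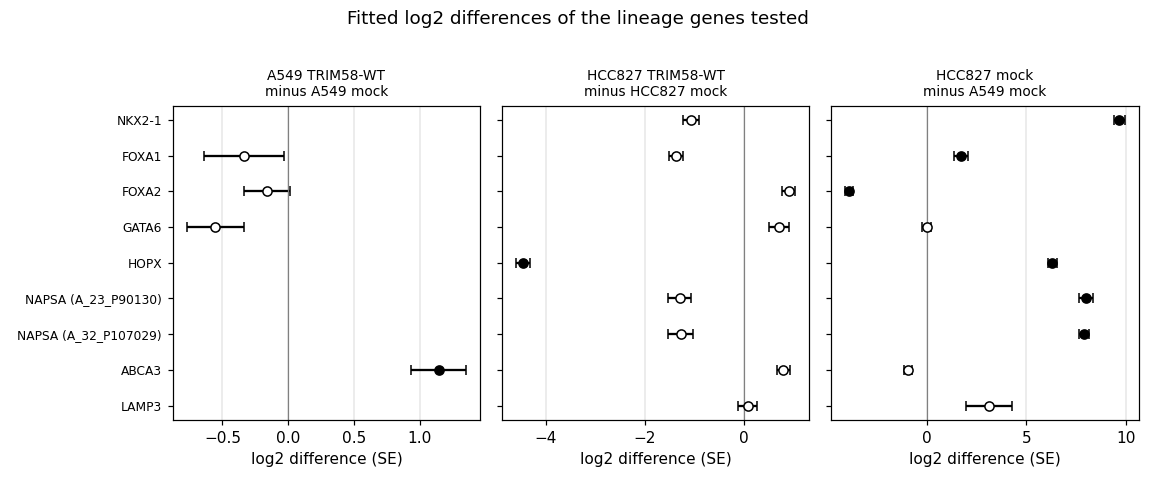
Fitted log2 differences, with SE, of the 9 probes tested, in the 3 comparisons, each panel on its own axis. Filled points were called and open points were not. ABCA3 is filled in A549, HOPX in HCC827, and 5 genes between the mock groups.

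The direction with TRIM58-WT can be set side by side for the 4 genes that passed the filter in both lines. ABCA3 was higher in each (1.14 and 0.78) and FOXA1 lower in each (-0.33 and -1.38), while FOXA2 (-0.16 and 0.90) and GATA6 (-0.55 and 0.70) had opposite signs. Of these differences only that of ABCA3 in A549 was called. The A549 groups overlapped for FOXA1 (SE 0.30) and FOXA2 (SE 0.17), so their signs in A549 are not established. The test of the difference between the lines called none of the 4.

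The genes most like ABCA3 over the 10 replicates, by the root mean square difference of levels after each probe's mean was subtracted, were LBX2 (0.12), CKAP4 (0.17) and SMAD7 (0.20), out of 12841 genes. For HOPX they were CHIA (0.59), HLA-DRB5 (0.63) and KCNK2 (0.76). The SD of the genes themselves was 0.77 for ABCA3 and 2.35 for HOPX. HLA-DRB5 has near-identical copies, so its probe may read several genes, and the HOPX pattern consists mostly of arrays at background.

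Other genes of lung lineages were counted in lists, with the brightest probe of each gene. The lists were written with results of these arrays known, and genes can pass the filter only through the group in which they are high. Nothing is therefore read from the shares of the lists. In the alveolar type 2 list, 5 of the 16 genes measured were tested in A549, with 1 called higher and 1 lower, against 7.98% of the 11202 genes tested in all. Cathepsin H (CTSH), which like NAPSA processes surfactant protein B, rose from 1.81 to 1.93 on the mock arrays to 2.85 to 3.24 on the TRIM58-WT arrays (log2 difference 1.12, SE 0.17, adjusted p = 0.0133). MALL, a membrane protein of lipid rafts, fell by 1.70 (SE 0.17, adjusted p = 0.00402). The median difference was 0.26, against 0.03 over all genes. In HCC827, limma called 0 of the 5 tested (2 had an unadjusted p under 0.05), against 1.1% of 12195 genes, and their median was -0.25. SFTA2, a surfactant-associated gene, was at background in A549, at 4.54 and 4.41 on the HCC827 mock arrays and at 4.50 and 4.57 on the HCC827 TRIM58-WT arrays, which overlapped. SFTPA2, named after its values were seen, encodes a surfactant collectin and stood at 1.02 and 0.78 in HCC827 mock against -1.76 and -0.59 in TRIM58-WT, not called. Its near-identical copy SFTPA1 may share its probe's signal.

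Between the mock groups all 6 type 2 genes tested were called, 4 higher in HCC827 and 2 lower, against 31.9% of 12407 genes. Among these 6, SFTA2 and DMBT1 passed the filter only through the line in which they are high. SFTA2 was at least 164-fold higher and the lysophospholipid acyltransferase LPCAT1 7.91-fold higher (adjusted p = 0.000498) in HCC827, and DMBT1 was at least 13.1-fold higher in A549. In the alveolar type 1 list 7, 10 and 10 of 14 genes were tested in A549, HCC827 and between the mock groups, and limma called 2, 0 and 6 of them, with 5 of the HCC827 genes at an unadjusted p under 0.05. SCEL, a cornified envelope protein, was at least 26.0-fold lower in A549 TRIM58-WT (adjusted p = 0.00121). The caveolin CAV1 was 3.56-fold higher in HCC827 mock than in A549 mock (adjusted p = 0.00269).

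Of the gut and liver endoderm genes, 7 of the 8 tested in A549 were called lower and none higher. VIL1, an actin-binding protein of microvilli, was at least 15.8-fold lower (adjusted p = 0.00367), and CPS1, an enzyme of the urea cycle, was 62.7-fold lower (adjusted p = 0.00229). In HCC827 0 of 4 were called by limma, with 1 at an unadjusted p under 0.05. Of the regulators of lung development, 19, 21 and 22 of 32 genes were tested in A549, in HCC827 and between the mock groups. In A549 1 was called higher, FOXP1 (1.68, SE 0.36, adjusted p = 0.0385), and 5 lower, among them BMP4 (-2.72, SE 0.47, adjusted p = 0.021) and KLF5 (-2.54, SE 0.28, adjusted p = 0.00519). BMP4 was well above background on only 1 A549 TRIM58-WT array. In HCC827 limma called none, with 12 of 21 at an unadjusted p under 0.05. Between the mock groups 2 were higher in HCC827 and 9 lower. Among the latter CEBPA, a regulator of type 2 maturation, differed by -4.31 (SE 0.19, adjusted p = 0.000134), with 1 of the 2 HCC827 mock arrays well above background.

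Airway lists were mixed. In A549, 2 of 6 secretory genes were called lower (SLPI and SPDEF), and 4 of 6 basal genes were called, SOX2 and S100A2 higher and ITGB4 and ITGA6 lower. SOX2, the factor of the proximal airway, was at background on all A549 mock arrays and at least 4.04-fold higher in TRIM58-WT (adjusted p = 0.0164). Its HCC827 levels ran the other way, 4.50 and 4.33 in mock against 1.03 and 2.12 in TRIM58-WT (-2.84, SE 0.39), not called. In HCC827, TSPAN8 of the secretory list was called lower (-2.69, SE 0.24, adjusted p = 0.0389), and 0 of 6 basal genes were called, with 4 at an unadjusted p under 0.05. The ciliated list had 1 of 1 tested gene called lower in A549 (RSPH1) and 0 of 2 in HCC827, where 1 had an unadjusted p under 0.05. The neuroendocrine list had 0 of 3 in A549, 1 at an unadjusted p under 0.05, and 1 of 2 in HCC827 (UCHL1, lower).

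Markers of epithelium were also called in A549. KRT19 was at least 723-fold lower in TRIM58-WT (adjusted p = 0.000151), EPCAM 29.4-fold lower (adjusted p = 0.0117, well above background on 1 of 3 TRIM58-WT arrays) and KRT8 2.59-fold lower, that is 3 of the 7 genes of the simple epithelium list. In HCC827 limma called 0 of the 7, with 2 at an unadjusted p under 0.05. Without mock 3 and TRIM58-WT 1, 5 of the 7 genes of that list were called in A549, 4 of 6 tested in the type 2 list and 6 of 8 in the gut and liver endoderm list, while calls over all genes rose from 7.98% to 25.1%. The array labelled mock 3 had lower KRT19 (6.11, against 7.30 to 7.52 on the other mock arrays) and EPCAM (0.59 against 2.71 to 2.78). Of the fibroblast and mesenchymal list, CDH2 was called higher in A549 (2.72, SE 0.62, adjusted p = 0.0472) and TWIST1 lower in HCC827. VIM and ZEB1 were well above background throughout every group. ACTA2 was so in both A549 groups, TWIST1 in A549 TRIM58-WT and HCC827 mock, and CDH2 in all groups but HCC827 TRIM58-WT. In A549, VIM (2.06), TWIST1 (1.75), ZEB1 (1.15) and ACTA2 (0.69) were higher with TRIM58-WT, not called. In HCC827, VIM was higher (1.43) and ZEB1 (-0.30) and CDH2 (-1.35) lower, not called. None of ZEB2, SNAI2, PDGFRA, PDGFRB, COL3A1 and DCN was well above background throughout any group. The part of epithelial and mesenchymal markers in the lineage genes was not tested. Of the leukocyte list, CD14 was called lower in A549 (8.32-fold, well above background on 1 of 3 TRIM58-WT arrays). Of the dendritic cell list none of 3 was called in A549 and none of 2 in HCC827, with 1 and 0 at an unadjusted p under 0.05.

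**Figure D4:**
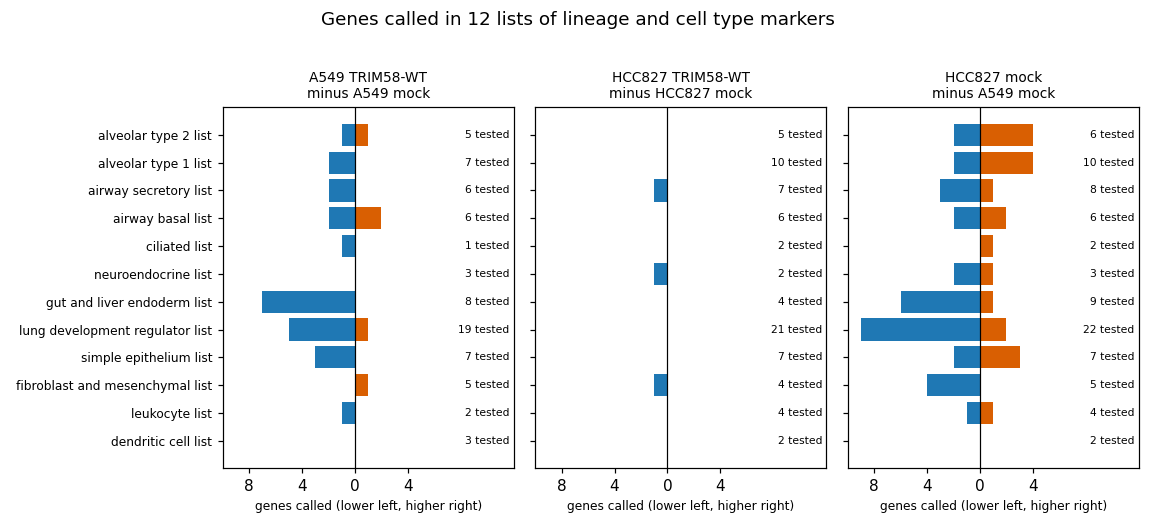
Genes called lower (blue, left of 0) and higher (orange, right of 0) in 12 lists of lineage and cell type markers, in the 3 comparisons, with the number of genes tested beside each bar. In A549 the longest bar is that of the gut and liver endoderm list (7 of 8 lower), and in HCC827 no list has more than 1 gene called.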

How the data were processed

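RNA of stable transfectants of A549 and HCC827 was labelled with Cy3 and hybridised to Agilent 1-colour arrays. The deposited spot intensities were made by the authors with Feature Extraction (11.5.1.1 per the file headers, 10.7 per the submitters' processing notes), which subtracted background and removed trends within an array, without scaling between arrays. The authors also deposited log2 values of the same arrays, of which 95.5% lay within 0.01 of the values computed here once a baseline was taken from each probe, the largest gap being 4.93. Array medians in those deposited values ran from -0.12 to 0.46, and its baseline is not stated.

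From the processed intensities, control and outlier spots were left out, spots of a probe were averaged, and log2 values minus each array's 75th percentile were computed with R 4.3.3 and limma 3.58.1. A probe's call of well above background followed the majority (share over 0.5) of its spots on that array. Comparisons within each line and between mock groups were fitted separately over all probes passing the filter, with lmFit, eBayes and Benjamini-Hochberg adjustment, and the difference of the changes over all replicates was called at an adjusted p under 0.05 alone. Where no array of a group had a probe above background, the fold is a lower bound. It sets the bright group's mean against the dim group's, in which each array enters with the probe's signal or with that of its dimmest measurable probe, whichever is higher. Probes were named through RefSeq accessions (GRCh38.p14), and promoters came from RefSeq for the same assembly, with no entry for FOXA2 and LAMP3. The script was tested on simulated data. Python 3.11.15 with matplotlib 3.10.9 drew the plots.

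The genes and lists were chosen with earlier results of these data known. Named genes are the 10 genes, TRIM58, at most 5 called genes per list and comparison with the largest difference, and the 3 genes most like each called gene. Of the genes this rule selects, 1 is not reported here. Markers that were measured but not called are named as such, and SFTPA2, SFTA2 and SOX2 in HCC827 were chosen after their values were seen. The alternatives covered normalization, background, dim-probe filters, fit, pairing, slide, the methods' t-test, the deposited log2 values, outlier spots, mock arrays 1-1 and 1-2, and replicates left out.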

Additional observations from a re-analysis of the deposited data

Results flagged for a closer look

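HOPX is listed for the difference between the lines in its change with TRIM58-WT, as a description, since the gene was chosen on these contrasts. The fitted HCC827 change minus the A549 change was -5.08 (log2), but the probe was well above background on the 2 HCC827 mock arrays alone. The A549 change of 0.63 that enters it lies between groups wholly at background and has no measured size, and the HCC827 change is a lower bound, so the fitted value is not a measure of how far the lines differ.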

How the results depend on the processing

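No value changed its sign while called. Of the differences of single genes under the alternatives, 486 were within the spread and on the same side of the threshold, 20 moved, 36 were newly called and 16 lost their call. In A549, 1171 probes (591 higher, 580 lower) and 1 of the 10 genes were called. With arrays centred on their median, which took the median difference of all probes from 0.06 to -0.31, 0 of the genes and 1113 probes (285 higher, 828 lower) were called. Normexp gave 506 probes and 0 genes, no filter 609 and 0, probes above background on every array 673, the slide block with mock 1-1 and 1-2 separate 1802, and the methods' t-test 24 and 0. Leaving out each replicate gave 297 to 372 probes and 0 genes without mock 1, mock 2, TRIM58-WT 2 or TRIM58-WT 3, and 2193 and 2 without mock 3. Without TRIM58-WT 1, 1466 probes were called, that of ABCA3 among them. Leaving out mock 3 and TRIM58-WT 1, chosen after seeing the data, gave 4691 probes and 4 genes. In HCC827, 173 probes (57 higher, 116 lower) and 1 gene were called, against 650 (300 higher, 350 lower) and 3 with median centring, 101 and 2 with normexp, 367 and 2 above background on every array, 0 and 0 with no filter (4371 probes at an unadjusted p under 0.05), 0 and 0 by the methods' t-test (1500 unadjusted), and 0 to 461 probes and 0 to 1 genes with a replicate left out (0 without either mock replicate, 461 without TRIM58-WT 2). Between the mock groups, 5905 probes and 5 genes became 3049 with normexp, 3434 and 2 above background on every array, 3003 by the methods' t-test, and 3773 (without HCC827 mock 1) to 6798 (without A549 mock 3) with a replicate left out, and 4 to 7 genes. For the difference between the lines, 794 probes (418 higher, 376 lower) and 1 gene became 526 (379 higher, 147 lower) with median centring, 3 genes with quantile normalization or normexp, 450 with no filter, 394 above background on every array, 1681 and 5 with the slide block, 1352 and 4 with mock 1-1 and 1-2 separate, 2 genes with mock 1-1 alone, 224 (without HCC827 mock 1) to 2213 (without A549 mock 3) probes and 1 to 4 genes with a replicate left out, and 7838 and 8 without mock 3 and TRIM58-WT 1. The cause was not tested. With the replicate block, limma called 1119 probes and 1 gene in A549, 0 and 0 in HCC827 (3840 unadjusted), 6506 between the mock groups and 767 for the difference between the lines. Deviations of same-numbered samples correlated by 0.50, -0.42 and 0.50 in A549 and 0.08 in HCC827. Differently numbered samples of A549 correlated by -0.59 to 0.57, so these values do not settle whether equal numbers mark a pairing. With 2 replicates a group in HCC827, the deviations mirror each other and cannot show a pairing. The methods' t-test of the difference between the lines and a slide block for HCC827, whose arrays were all on 1 slide, were not run. Dim signal limits SFTPB, SFTPD and the A549 levels of NKX2-1, HOPX and NAPSA.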
